A study of Rattus norvegicus with 6 samples.

Results

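Hox genes encode homeodomain transcription factors that tell cells where along the body axis and along the limb they lie. Here they were followed in the rat Achilles tendon by taking every array row whose only gene symbol was Hox with a cluster letter from a to d and a paralog number, and keeping the row with the highest mean signal for each gene. This gave 33 Hox genes out of 22093 genes on the array, 8 of the HoxA, 10 of the HoxB, 8 of the HoxC and 7 of the HoxD cluster. Other Hox genes were not analysed here.

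The samples were skin-removed Achilles tendons of the left hindlimb from 3 male Sprague Dawley rats aged 6 to 8 weeks (P 6-8w) and from 3 male Sprague Dawley rats on day 1 after birth (P 1d). All animals were intact and untreated, each array held the RNA of 1 rat, and the whole tissue was profiled without sorting cells. The study compared these ages to see how tendons change as they mature. Signals are log2 values after robust multi-array average (RMA), a method that corrects the background of an Affymetrix array and summarises the many short probes of a transcript into 1 value. A difference is the P 6-8w mean minus the P 1d mean on this log2 scale, and the value after ± is its SE from limma unless SD is written. A difference was called where the adjusted p from limma, over all 22093 genes, was under 0.05 and the fold change was over 2, that is a log2 difference over 1 in size. The smallest p that an exact permutation test (two-sided) of a single gene allows with 3 rats against 3 is 0.1, and the number of arrays limits the precision. In bulk tissue, fewer cells of a type and less RNA per cell cannot be told apart.

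In mammals the Hox genes lie in 4 clusters on different chromosomes, ordered so that low paralog numbers act towards the head and high numbers towards the tail. In the limb, studied mainly in the mouse, paralogs 9 and 10 pattern the upper segment, paralog 11 the middle segment with its tendons and muscle connective tissue, and paralogs 12 and 13 the hand or foot. Several HoxC genes are used in the hindlimb and not in the forelimb, and adult fibroblasts of many tissues keep a Hox pattern that reflects where in the body they come from.

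The clusters also hold microRNA genes, which are shown here because they sit between the Hox genes and are known, in the mouse and other vertebrates, to act on Hox messenger RNAs. The mature sequences below are from RefSeq on the build GRCr8, with the seed (bases 2 to 8) in capitals. Mir196a lies in the HoxC cluster (chr7:135988900-135988921, + strand), Mir196b in HoxA (chr4:82661149-82661170, − strand), and Mir196c (chr10:81727561-81727582, + strand) and Mir10a (chr10:81779730-81779752, + strand) in HoxB.
miR-196a-5p: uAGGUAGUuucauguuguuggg
miR-196b-5p: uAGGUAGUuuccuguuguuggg
miR-196c-5p: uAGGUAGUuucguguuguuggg
miR-10a-5p: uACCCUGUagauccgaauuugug
The miR-196 members share the seed AGGUAGU, while miR-10a has the seed ACCCUGU.

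A promoter sequence was given for 16 of the 33 Hox genes. Of the genes on which the results turn, Hoxd13 and Hoxa11 were among them and Hoxc10 was not. The array does not read promoters, so these sequences show only where the genes begin. Each run holds the 250 bases before the start of the gene, read 5′ to 3′ on its own strand, with every CG in capitals. The Hoxd13 run lies at chr3:79977827-79978076 (+ strand) and the Hoxa11 run at chr4:82676802-82677051 (− strand), both from RefSeq on GRCr8.
Hoxd13: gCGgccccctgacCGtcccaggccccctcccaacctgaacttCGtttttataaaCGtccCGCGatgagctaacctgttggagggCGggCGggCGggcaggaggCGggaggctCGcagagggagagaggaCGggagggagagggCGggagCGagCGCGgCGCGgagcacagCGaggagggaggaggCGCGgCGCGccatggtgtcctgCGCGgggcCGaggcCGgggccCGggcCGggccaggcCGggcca
Hoxa11: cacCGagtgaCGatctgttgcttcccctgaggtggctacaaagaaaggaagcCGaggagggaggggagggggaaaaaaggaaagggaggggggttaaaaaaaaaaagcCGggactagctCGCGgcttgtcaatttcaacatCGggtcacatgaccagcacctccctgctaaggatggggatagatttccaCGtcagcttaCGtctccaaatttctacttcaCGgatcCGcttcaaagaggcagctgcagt
The Hoxd13 run holds 30 CG, and 5.35% of all 33469 promoters of this length hold as many. The Hoxa11 run holds 11 CG, a number that 33.6% of all promoters reach. Over the 16 Hox promoters the median was 19 CG (range 3 to 39), against 5 (range 0 to 56) over all promoters. The letters TGATNNAT, the core of the joint site of Hox and Pbx proteins, were searched on both strands as the only motif. They were in 2 of the 16 Hox promoters (12.5%, Hoxa2 and Hoxb1) and in 7.96% of all promoters. The start of the antisense gene Hoxa11-as, on the other strand, lies 227 bases from the start of Hoxa11, inside the run shown.

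Across the arrays, the median signal of all rows was 4.43 to 4.54 at P 6-8w and 3.93 to 3.98 at P 1d. Among the tendon markers, Col1a1 (type I collagen) stood at 19.56 to 19.59 at P 6-8w and 19.74 to 19.79 at P 1d, at the top of the scale, and Dcn (decorin) at 18.94 to 19.26 at P 6-8w and 17.69 to 18.90 at P 1d. Scx, a transcription factor that defines tendon cells, lay at 4.44 to 4.52 at P 6-8w and 4.52 to 4.55 at P 1d. Mkx, another such factor, lay at 4.75 to 5.08 at P 6-8w and 4.72 to 4.98 at P 1d, and neither was called. Of the 10 tendon genes 1 was called, Tnc (tenascin C), at 10.49, 8.61 and 9.85 at P 6-8w, against 12.76, 11.31 and 12.42 at P 1d (−2.51 ± 0.61, adjusted p = 0.0182). Tnmd (tenomodulin), a membrane protein of mature tendon cells, was 13.47, 9.36 and 12.37 at P 6-8w and 14.91, 14.38 and 13.44 at P 1d (−2.51 ± 1.12, adjusted p = 0.106). P 6-8w replicate 2 stood apart in these genes. Kera (keratocan) was 15.90, 12.61 and 15.57 at P 6-8w and 15.77, 15.26 and 14.11 at P 1d. On that array the median of the tendon list was 9.04, against 11.98 and 11.11 on the other P 6-8w arrays, and the summed signal of the skeletal muscle genes was 18.19 (log2), against 20.17 and 20.32. Without that array Hoxc10 differed by −0.97 and was not called. P 1d replicates 1 and 3 stood apart by their epidermal genes. Krt1, a keratin of the upper epidermis, was 5.40, 4.32 and 4.32 on the P 6-8w arrays, against 17.94, 4.25 and 18.86 on the P 1d arrays. Krt10, its partner keratin, was 4.75, 4.56 and 4.56 at P 6-8w, against 13.91, 4.27 and 15.85 at P 1d. Filaggrin (Flg) was 5.11, 4.35 and 4.30 at P 6-8w, against 13.77, 4.05 and 16.71 at P 1d. These rows were dim on P 1d replicate 2, so each Hox call is also given with that array as the only P 1d sample.

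None of the 4 measured genes of limb type was called between the ages. Pitx1, the factor that makes a limb a hindlimb, was 4.19, 4.27 and 4.07 at P 6-8w and 4.22, 4.03 and 4.27 at P 1d (difference 0.00 ± 0.09 SE, adjusted p = 0.980). Tbx4, its partner in the hindlimb, was 5.29, 5.44 and 5.23 at P 6-8w and 5.67, 5.44 and 5.22 at P 1d (difference −0.12 ± 0.13 SE, adjusted p = 0.443). Tbx5, the forelimb counterpart of Tbx4, had 4.28 on all 3 P 6-8w arrays and 4.19, 3.92 and 3.85 at P 1d (difference 0.29 ± 0.10 SE, adjusted p = 0.0542). Isl1, a gene of the early hindlimb field, had the largest difference of the 4, with 5.03 on all 3 P 6-8w arrays and 4.75, 4.45 and 4.36 at P 1d (difference 0.51 ± 0.11 SE, adjusted p = 0.0134). The ages did not overlap in Tbx5 and Isl1, and Isl1 stayed under a fold of 2. Over all genes 19.2% were called, and in 34.8% every P 6-8w array lay above every P 1d array. Among the 16007 genes with a mean signal in the range of the Hox genes these shares were 5.55% and 45.6%. The deposited values carry no detection calls, so whether a signal near 4 is above background is not known, and a difference between Tbx4 and Tbx5 signals cannot be read as a difference in transcript amount because each row has its own probes. The hindlimb label of the set therefore rests on the dissected limb and on the known roles of the genes.

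Most Hox genes differed between the ages by less than a fold of 2 as deposited (the plots of signal by array and of differences by cluster). Of the 33, Hoxc10 fell and Hoxd13 rose at P 6-8w and 31 were not called, although Hoxc10 turned sign (0.77) once arrays were centred on bright genes. Among all 22093 genes 16.8% were called lower and 2.46% higher, together 19.2%. Among the 16007 genes whose mean signal lay in the range of the Hox genes, 2.82% were called lower and 2.72% higher, together 5.55%, so 2 of 33 is near the share of equally bright genes. The median difference over the 33 genes was 0.09, against 0.04 over all genes. In 11 genes the difference was below 0, in 21 above 0, and in Hoxb8 it was 0.00.

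**Figure D1:**
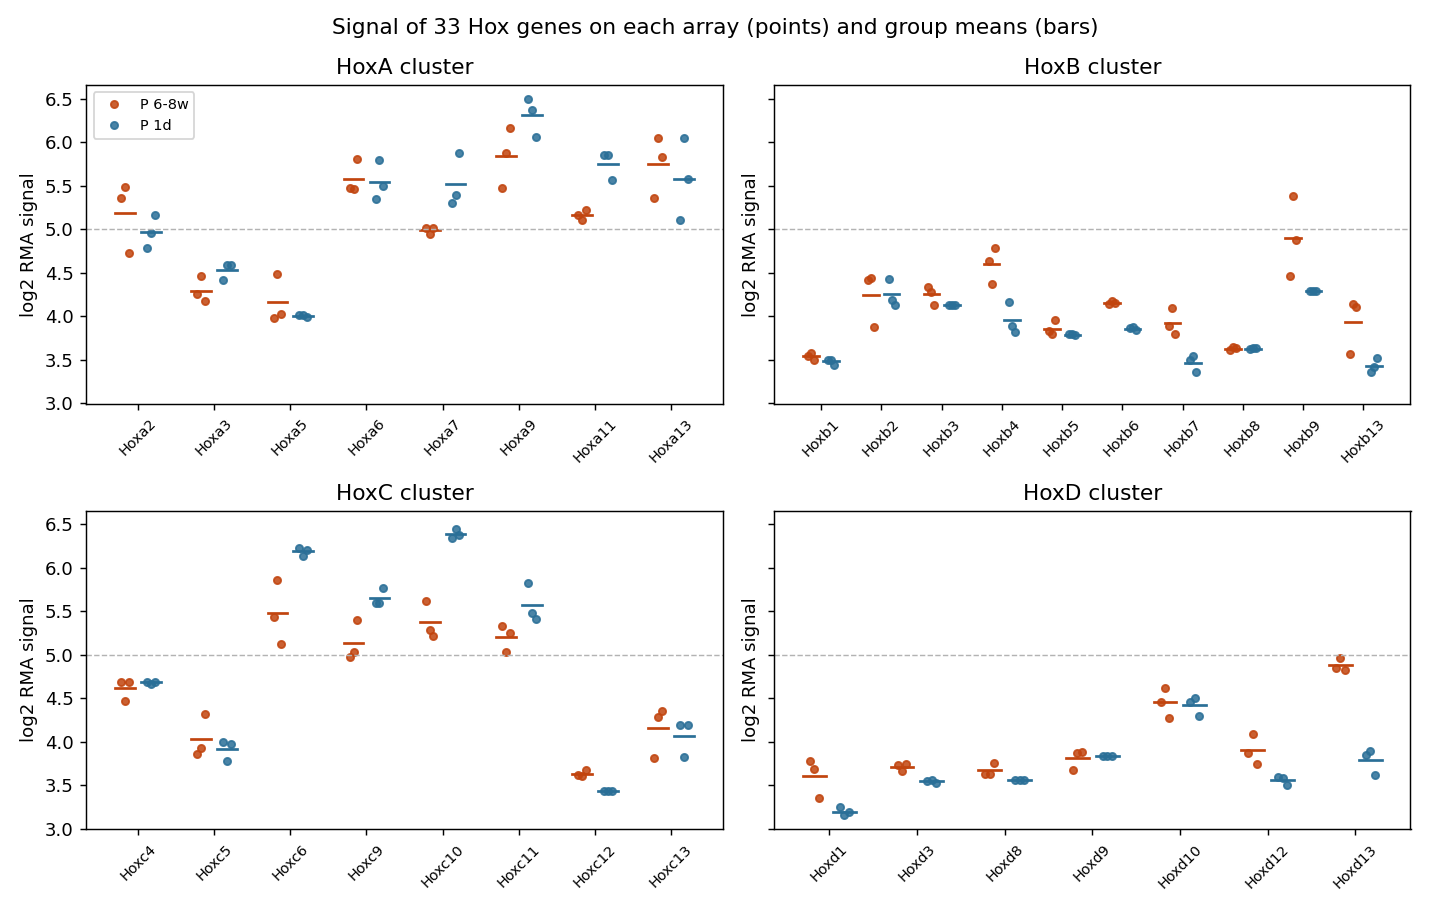
Log2 RMA signal (y axis) of the 33 Hox genes (x axis, ordered by paralog number) on each array, with P 6-8w points and group means (bars) left of P 1d in each pair, 1 panel per cluster. The dashed line marks a signal of 5. Hoxc10 and Hoxd13 have no overlap between ages, while genes such as Hoxa6, Hoxa13 and Hoxd10 overlap.

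**Figure D2:**
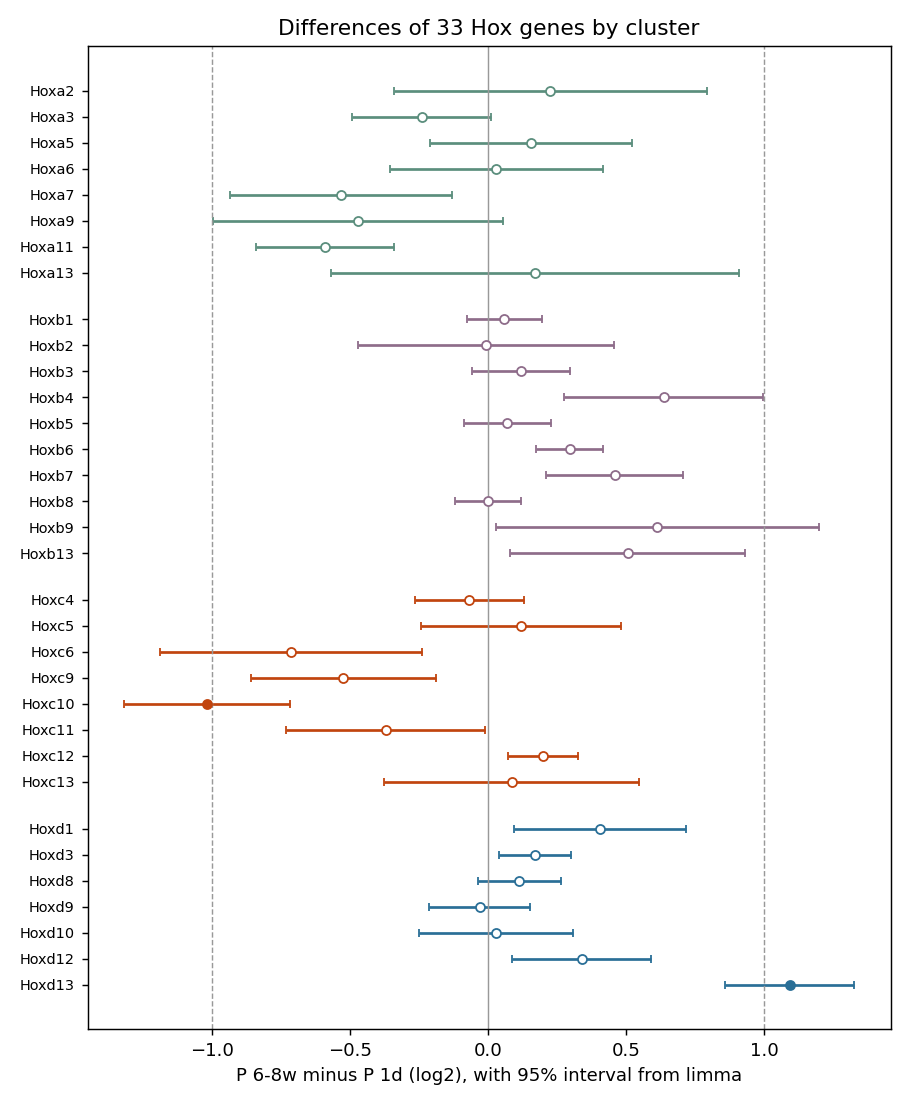
Difference of each Hox gene (P 6-8w minus P 1d, log2, x axis) with its 95% interval from limma, grouped by cluster from HoxA at the top to HoxD at the bottom. Filled points are the called genes Hoxc10 and Hoxd13, open points are not called, and dashed lines mark a fold change of 2 in each direction. In 29 of 33 genes the interval stays between the dashed lines.

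Without the limit on the fold change, 5 Hox genes had an adjusted p under 0.05 and were lower at P 6-8w (Hoxa7, Hoxa11, Hoxc6, Hoxc9 and Hoxc10). Another 8 were higher (Hoxb4, Hoxb6, Hoxb7, Hoxc12, Hoxd1, Hoxd3, Hoxd12 and Hoxd13). Over all genes 54.3% passed this weaker rule, 30.6% lower and 23.7% higher, and over equally bright genes 46%, 14.7% lower and 31.4% higher. The lower genes were all of HoxA and HoxC, and the higher ones, apart from Hoxc12, of HoxB and HoxD. By the plain rule that the values of the ages do not overlap, 6 genes were lower at P 6-8w (those 5 and Hoxc11), 11 were higher and 16 overlapped. Over all genes the same rule gave 34.1% lower and 34.8% higher, and over equally bright genes 17.8% and 45.6%. The 95% interval of the difference stayed within a fold of 2 either way in 29 Hox genes and reached it in Hoxb9, Hoxc6, Hoxc10 and Hoxd13. Such an interval was found for 62.1% of all genes and 76.4% of equally bright genes.

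Signal and direction went together on these arrays, for Hox genes and for all genes (the plot of difference against mean signal). Among genes with a mean of 3 to 4 the median difference was 0.33 over all 6292 genes and 0.15 over the 12 Hox genes. Between 4 and 5 it was 0.22 over all 6125 genes and 0.12 over the 11 Hox genes. Between 5 and 6 it was −0.34 over all 3732 genes and −0.52 over the 9 Hox genes. Hoxa9, the Hox gene with a mean above 6, differed by −0.47, where the median of 2471 genes between 6 and 7 was −0.84. The clusters differed in signal too. All 17 HoxB and HoxD genes had a mean under 5, while 6 of 8 HoxA and 4 of 8 HoxC genes had a mean of 5 or above. The split of directions between clusters can therefore not be told apart from the split by signal, and the signal of a row also depends on its probes.

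**Figure D3:**
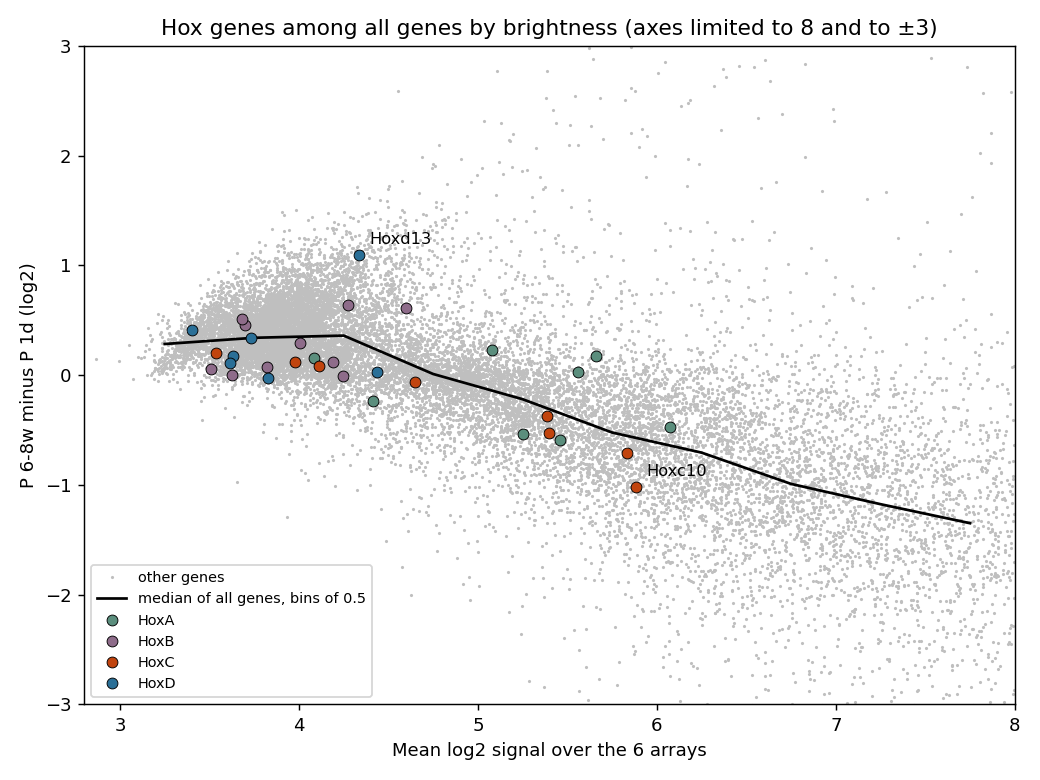
Difference between ages (P 6-8w minus P 1d, log2, y axis) against the mean log2 signal over the 6 arrays (x axis) for the Hox genes, coloured by cluster, and for other genes in grey. The black line is the median of all genes in bins of 0.5. Dim genes lie on average above 0 and brighter genes below it, and Hoxc10 and Hoxd13 lie below and above the line.

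In the HoxC cluster, 1 of 8 genes fell, none rose, and the median difference was −0.22. Hoxc10, which in the mouse acts in the hindlimb and the lumbar spinal cord, had signals of 5.62, 5.28 and 5.22 at P 6-8w, against 6.34, 6.45 and 6.38 at P 1d. Every P 6-8w array was below every P 1d array. The means were 5.37 ± 0.22 and 6.39 ± 0.06 (SD, n = 3 each), and the difference was −1.02 ± 0.12 (SE, 95% interval −1.32 to −0.72, adjusted p = 0.00191 by limma). Among all genes this placed Hoxc10 at the 66.6th percentile of signal at P 6-8w and at the 74.0th at P 1d. The call lies at the edge of the fold limit. It was lost without P 6-8w replicate 2 (−0.97), without P 6-8w replicate 3 (−0.94) and without P 1d replicate 2 (−0.99), and with P 1d replicate 2 as the only neonatal array the difference was −1.08 with an adjusted p of 0.0879.

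The neighbours of Hoxc10 in the cluster showed smaller differences of the same sign. Hoxc9, which marks the thoracic level of the spinal cord, was 4.97, 5.03 and 5.40 at P 6-8w and 5.60, 5.60 and 5.77 at P 1d (−0.52 ± 0.13, adjusted p = 0.0220). A second row of Hoxc9 differed by 0.23 in the other direction. Hoxc11, a hindlimb gene of the middle segment, was 5.33, 5.03 and 5.25 at P 6-8w and 5.83, 5.48 and 5.41 at P 1d (−0.37 ± 0.14, adjusted p = 0.0760). The ages did not overlap in either, but Hoxc11 missed the adjusted p. Hoxc6, a trunk gene of a middle paralog group, was 5.44, 5.86 and 5.13 at P 6-8w and 6.23, 6.14 and 6.20 at P 1d (−0.71 ± 0.19, adjusted p = 0.0245). Its P 6-8w values spread over 0.73 while the P 1d values lay within 0.09, and its interval, −1.19 to −0.24, reaches past a fold of 2.

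The outer HoxC genes had signals under 5. Hoxc4 was 4.69, 4.47 and 4.69 at P 6-8w and 4.69, 4.67 and 4.69 at P 1d (−0.07 ± 0.08), and Hoxc5 differed by 0.12 ± 0.14. Hoxc12 was 3.62, 3.61 and 3.68 at P 6-8w and 3.44, 3.44 and 3.43 at P 1d (0.20 ± 0.05, adjusted p = 0.0215), with the ages 0.17 apart at their nearest arrays. Hoxc13, a gene of hair follicles and nails, was 3.82, 4.29 and 4.36 at P 6-8w and 4.19, 3.83 and 4.19 at P 1d (0.09 ± 0.18, adjusted p = 0.699). The lowest of its P 1d values was on replicate 2, the array with dim epidermal rows. There the median of 13 hair follicle genes was 3.65, against 4.48 and 4.97 on P 1d replicates 1 and 3. On the P 6-8w arrays that median was 3.99, 4.03 and 4.10, where Hoxc13 was 3.82, 4.29 and 4.36. The part of hair follicles in the Hoxc13 values was not tested.

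In the HoxD cluster, 1 of 7 genes rose, none fell, and the median difference was 0.17. Hoxd13, which patterns the digits and lies at the tail end of the cluster, had signals of 4.85, 4.96 and 4.83 at P 6-8w, against 3.85, 3.89 and 3.62 at P 1d. The ages were separated by a gap of 0.94 between the lowest P 6-8w and the highest P 1d array. The means were 4.88 ± 0.07 and 3.79 ± 0.15 (SD, n = 3 each), and the difference was 1.09 ± 0.09 (SE, 95% interval 0.86 to 1.33, adjusted p = 0.000732 by limma). Its rank among all genes was the 53.7th percentile at P 6-8w and the 27.7th at P 1d. The call was kept when any 1 of the 6 arrays was left out (1.01 to 1.15). With P 1d replicate 2 as the only neonatal array the difference was 0.99 (adjusted p = 0.0442), just under the fold limit.

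The genes next to Hoxd13 differed less. Hoxd12, also a gene of the digits, was 3.87, 4.09 and 3.75 at P 6-8w and 3.60, 3.58 and 3.51 at P 1d (0.34 ± 0.10, adjusted p = 0.0344). Hoxd10, a gene of the lumbar spinal cord and the limb, was 4.46, 4.62 and 4.28 at P 6-8w and 4.46, 4.51 and 4.30 at P 1d (0.03 ± 0.11, adjusted p = 0.826), so the ages overlapped. Hoxd9 was 3.68, 3.87 and 3.88 at P 6-8w and 3.84 on all 3 P 1d arrays, and Hoxd8 was 3.63, 3.63 and 3.76 at P 6-8w and 3.56 on all 3 P 1d arrays. At the other end of the cluster, Hoxd1 differed by 0.41 ± 0.12 (adjusted p = 0.0380) and Hoxd3 by 0.17 ± 0.05 (adjusted p = 0.0384). Single values repeated on every P 1d array were common. They occurred in 16.6% of all genes and in 4 of 33 Hox genes (Hoxb3, Hoxb9, Hoxd8 and Hoxd9), against 1.71% of all genes and 0 Hox genes on the P 6-8w arrays.

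In the HoxA cluster none of 8 genes was called, and the median difference was −0.11. Hoxa11, which patterns the middle limb segment and in the mouse is expressed in its tendons, was 5.16, 5.11 and 5.22 at P 6-8w, against 5.85, 5.85 and 5.56 at P 1d. The ages did not overlap, and the difference of −0.59 ± 0.10 (adjusted p = 0.00582) was under the fold limit, with an interval of −0.84 to −0.34. All 4 rows of Hoxa11 were lower at P 6-8w, by 0.13 to 0.59. Its antisense gene Hoxa11-as was 5.09, 5.59 and 5.10 at P 6-8w and 5.66, 5.91 and 5.11 at P 1d (−0.30 ± 0.25, adjusted p = 0.336). All 4 rows of Hoxa11-as were likewise below 0, at −0.47 to −0.05.

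Hoxa13, the gene of the hand and foot in this cluster, was 5.36, 6.05 and 5.83 at P 6-8w and 5.11, 6.05 and 5.57 at P 1d (0.17 ± 0.29, adjusted p = 0.634). Its values within an age spread further than the ages differed, and the interval of −0.57 to 0.91 allows for a change of either sign. Its 3 rows differed by 0.05 to 0.35. Hoxa9, a gene of the upper limb segment and trunk, was 5.47, 5.88 and 6.16 at P 6-8w and 6.49, 6.37 and 6.06 at P 1d (−0.47 ± 0.21, adjusted p = 0.107), and its 5 rows ranged over −0.84 to 0.01. A row almost as bright as the one used (mean 6.05 against 6.07) differed by −0.58, with an adjusted p of 0.00681 by limma over all rows. In that fit the row at −0.84 had an adjusted p of 0.0129, and the remaining Hoxa9 rows were above 0.05. Hoxa7, a trunk gene, was 5.01, 4.94 and 5.01 at P 6-8w and 5.30, 5.39 and 5.87 at P 1d (−0.53 ± 0.16, adjusted p = 0.0364), while its other row differed by 0.01. These trunk genes thus gave different values depending on the row.

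The remaining HoxA genes, with lower paralog numbers, differed by −0.24 to 0.23 in the rows used. Hoxa6 was 5.47, 5.46 and 5.80 at P 6-8w and 5.35, 5.79 and 5.50 at P 1d (0.03 ± 0.15, adjusted p = 0.876), although its other 3 rows were lower at P 6-8w, at −0.49 to −0.40. Hoxa2, which shapes the branchial arches, was 5.36, 5.48 and 4.73 at P 6-8w and 4.78, 4.95 and 5.16 at P 1d (0.23 ± 0.23, adjusted p = 0.410). Hoxa3 differed by −0.24 ± 0.10 and Hoxa5 by 0.16 ± 0.15, neither with an adjusted p under 0.05. Over the 9 Hox genes with several rows, 27 rows in all, 4 genes had all rows on one side of 0 and 5 had rows on both sides (the plot of single rows). Several of these rows come from an unplaced copy of the HoxA cluster and may share sequence, so they are not independent measurements.

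**Figure D4:**
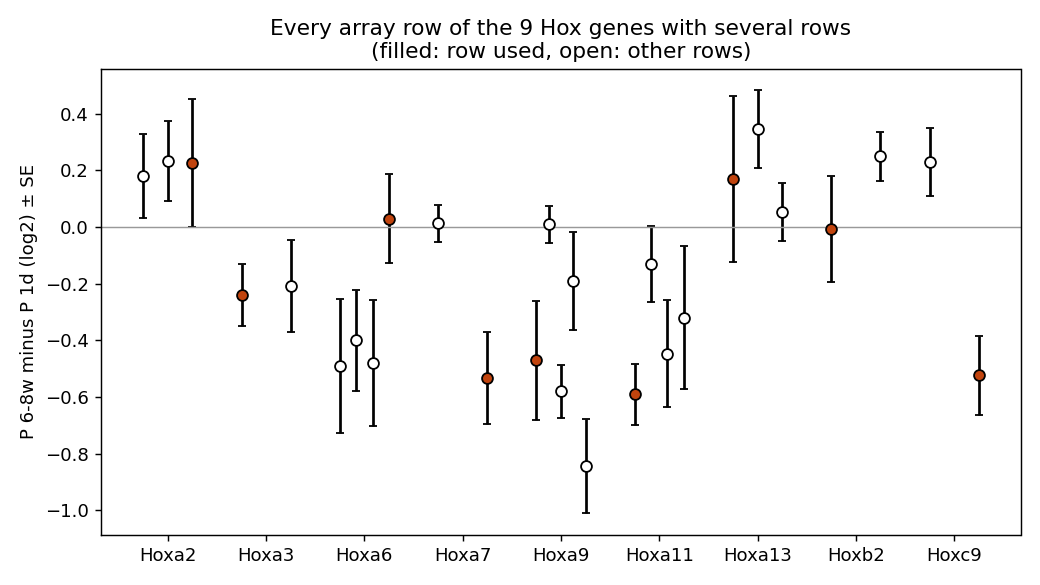
Difference (P 6-8w minus P 1d, log2 ± SE from a fit over all rows, y axis) of every array row of the 9 Hox genes with several rows (x axis). Filled points are the rows used here and open points the other rows. Hoxa11, Hoxa13, Hoxa2 and Hoxa3 stay on one side of 0, and Hoxa9 spans the widest range, −0.84 to 0.01.

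In the HoxB cluster none of 10 genes was called and the median difference was 0.21. Hoxb4, known for its role in blood stem cells, was 4.63, 4.37 and 4.78 at P 6-8w and 4.16, 3.89 and 3.82 at P 1d (0.64 ± 0.14, adjusted p = 0.0149). Hoxb7, a trunk gene, was 3.89, 4.09 and 3.80 at P 6-8w and 3.50, 3.54 and 3.36 at P 1d (0.46 ± 0.10, adjusted p = 0.0128). Hoxb6 was 4.14, 4.17 and 4.15 at P 6-8w and 3.86, 3.87 and 3.84 at P 1d (0.30 ± 0.05, adjusted p = 0.00523). In these genes every P 6-8w array was above every P 1d array, at signals under 5 and below the fold limit.

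Hoxb9, a gene of the trunk and the forelimb level, was 4.46, 5.38 and 4.87 at P 6-8w and 4.29 on all 3 P 1d arrays (0.61 ± 0.23, adjusted p = 0.0721), with an interval of 0.03 to 1.20. Hoxb13, a gene of the tail and the prostate, was 3.57, 4.14 and 4.10 at P 6-8w and 3.36, 3.41 and 3.52 at P 1d (0.51 ± 0.17, adjusted p = 0.0503). Neither passed the adjusted p, though the ages did not overlap. Hoxb8 was 3.61, 3.64 and 3.63 at P 6-8w and 3.62, 3.63 and 3.63 at P 1d, the closest match between ages among the 33 genes as deposited. The differences of Hoxb1, Hoxb2, Hoxb3 and Hoxb5 lay at −0.01 to 0.12.

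Read by paralog number, the set showed no common direction. Among paralogs 1 to 4 none of 9 genes was called and the median difference was 0.12. Among paralogs 5 to 8 none of 10 was called and it was 0.09. Both called genes were among the 14 genes of paralogs 9 to 13, where the median was 0.06. Within this limb-level range, paralogs 11 (Hoxa11 and Hoxc11) differed by −0.59 and −0.37, paralogs 10 (Hoxc10 and Hoxd10) by −1.02 and 0.03, and paralogs 12 (Hoxc12 and Hoxd12) by 0.20 and 0.34. Paralogs 10 and 11 are incomplete here, since Hoxa10 and Hoxd11 are not among the 33 genes. The 4 genes of paralog 13 lay between 0.09 and 1.09, and the 4 of paralog 9 between −0.52 and 0.61. The deposited values also spread more among the P 6-8w arrays. The median SD over the 33 genes was 0.17 at P 6-8w and 0.08 at P 1d, larger at P 6-8w in 26 of 33, and over all genes it was larger at P 6-8w in 17500 of 22093. These counts include the 16.6% of all genes with a single value repeated on every P 1d array, against 1.71% at P 6-8w. Whether the rats themselves varied more was not tested.

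How the arrays are put on a common scale moved these results (the plot of both called genes by setting). Centring each array on the median of all rows brought the median difference of all genes to −0.47 and that of the Hox genes to −0.42, with 5 Hox genes called lower and 0 higher. Centring on named genes with a mean of 8 or above brought them to 1.83 and 1.88, with 32 Hox genes called higher and 0 lower. Centring on 10 reference genes gave 0.99 and 1.03, with 19 Hox genes called higher and 0 lower. Each centring shifts every gene of an array by the same amount. The Hox genes therefore move with the median of all genes by construction. After quantile normalization the Hox median was −0.19 and that of all genes 0.00, with no Hox gene called. Hence no direction of the set as a whole can be read. Hoxc10 was −1.53 after centring on all rows, −0.07 after centring on the reference genes, −0.49 after quantile normalization and 0.77 after centring on the bright genes, where its sign turned. Hoxd13 stayed above 0 throughout, at 0.58 after centring on all rows, 0.97 after centring on the named genes, 0.90 after quantile normalization and 2.88 after centring on the bright genes, though the first 3 of these are under the fold limit.

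**Figure D5:**
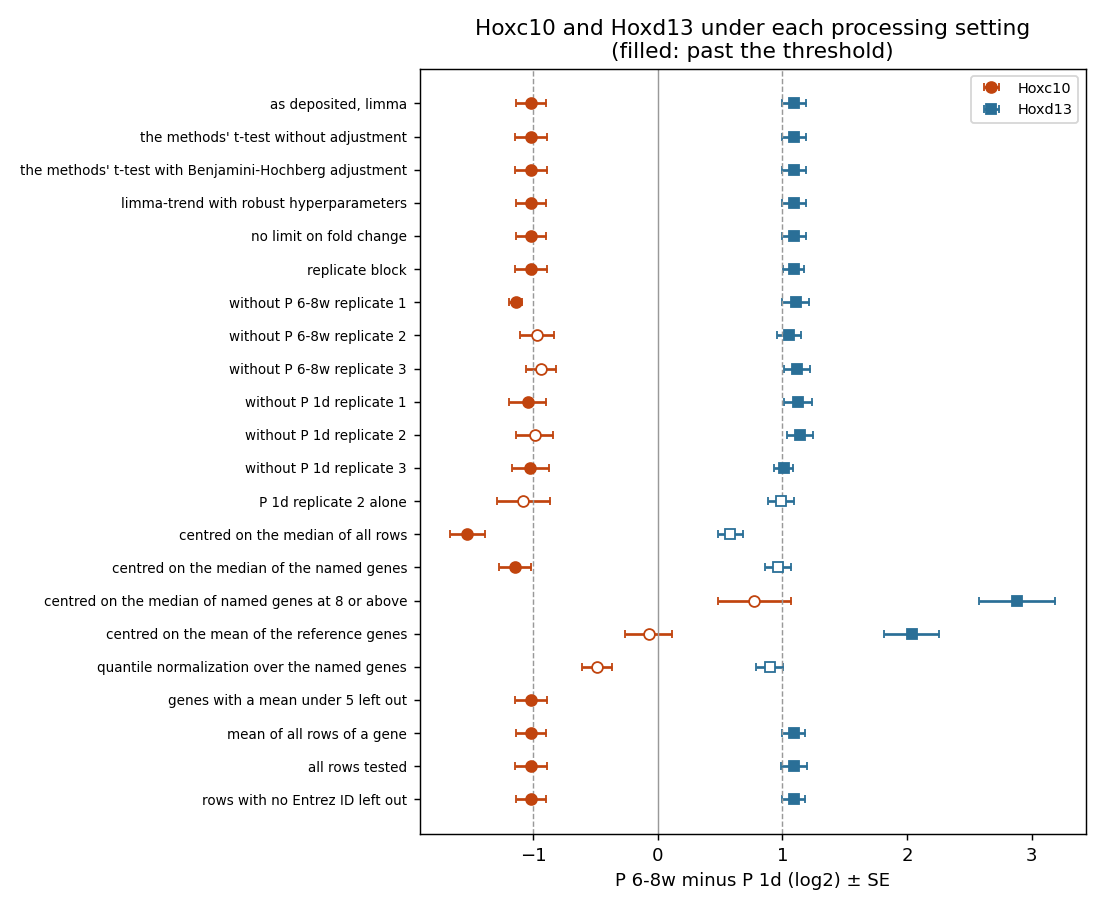
Difference of Hoxc10 (circles) and Hoxd13 (squares) between ages (P 6-8w minus P 1d, log2 ± SE, x axis) under each processing setting (rows). Filled symbols are past the threshold in that setting, and dashed lines mark a fold change of 2. Hoxd13 stays right of 0 in all settings shown, while Hoxc10 lies at 0.77 after centring on bright genes.

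The microRNA rows in the clusters report the precursor or its gene, not the mature microRNA, and none was called. Mir196b was 5.54, 6.03 and 5.93 at P 6-8w and 6.30, 5.76 and 6.16 at P 1d (−0.24 ± 0.19, adjusted p = 0.321). Mir196c was 5.81, 6.17 and 6.81 at P 6-8w and 5.95, 5.34 and 5.81 at P 1d (0.56 ± 0.30, adjusted p = 0.157). The ages overlapped in both. Mir196a was 3.94, 4.81 and 4.13 at P 6-8w and 4.11, 3.92 and 3.97 at P 1d (0.29 ± 0.24, adjusted p = 0.319). Mir10a was 3.75, 3.69 and 4.52 at P 6-8w and 3.56, 3.59 and 3.56 at P 1d (0.42 ± 0.23, adjusted p = 0.175), and 1 P 6-8w array carried most of that difference. Mir615, in HoxC, differed by −0.05 ± 0.06.

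Hox proteins bind DNA together with TALE homeodomain cofactors of the Pbx, Meis and Pknox families. Of 12 such genes and their regulators 11 were measured, 2 fell, none rose, and 6 had an adjusted p under 0.05 and were lower at P 6-8w, with a median difference of −0.44. Pknox2 was 5.0, 4.90 and 4.97 at P 6-8w, against 6.16, 6.62 and 6.34 at P 1d (−1.42 ± 0.13, adjusted p = 0.00084). Pbx3 was 6.52, 5.88 and 6.41 at P 6-8w, against 7.70, 7.52 and 7.24 at P 1d (−1.22 ± 0.21, adjusted p = 0.00633). No array of one age reached the other in either cofactor. With 7 of the 11 genes at a mean of 5 or above, the list lay in a range of signal where 3678 of all 9674 genes (38%) were called lower, and 66% were lower with an adjusted p under 0.05. The 6 lower genes all lay in that range, while 4 of the 11 had a mean under 5. Those shares therefore stand beside the 7 genes in that range and not the 11. Of these 7, 2 were called lower and 6 were lower with an adjusted p under 0.05, and no difference was tested. After centring on the bright genes Pknox2 and Pbx3 turned sign, to 0.37 and 0.57.

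Polycomb, trithorax and insulator proteins keep Hox clusters closed or open. Of 24 such genes 21 were measured, 6 fell and none rose, and the median difference was −0.68. At an adjusted p under 0.05, 15 were lower and 1 was higher. A mean of 5 or above held 19 of the 21, and over all genes of that range 38% were called lower, 66% were lower with an adjusted p under 0.05, and the median was −0.76. The 6 and 15 of 21 stand beside those shares with no test of a difference. Rnf2, the ubiquitin ligase of Polycomb complex PRC1, was 6.95, 6.87 and 6.98 at P 6-8w, against 9.54 on all 3 P 1d arrays (−2.61 ± 0.05, adjusted p = 5.03e-05). Its P 1d values had no spread, as in 16.6% of all genes (1.71% at P 6-8w), which lowers its SE and adjusted p. Ezh2, the methyltransferase of PRC2, was 5.73, 5.97 and 5.85 at P 6-8w, against 7.12, 7.23 and 7.16 at P 1d (−1.32 ± 0.08, adjusted p = 0.00032). Rnf2 and Ezh2 were thus dimmer on every P 6-8w array, but other Polycomb genes of the list were not. The ages overlapped in Ring1 (0.11 ± 0.08) and Ezh1 (−0.63 ± 0.32). Cbx7 was the gene with a higher signal at P 6-8w (0.45 ± 0.06, adjusted p = 0.00232). Bptf, a chromatin remodeller, differed by −1.69 ± 0.21 (adjusted p = 0.00225) and the insulator protein Ctcf by −1.17 ± 0.18 (adjusted p = 0.00415). Centred on the bright genes, Bptf, Ezh2 and Ctcf turned sign, Ctcf also after quantile normalization (0.45), and Rnf2 stayed below 0 (−0.82).

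Limb bud transcription factors other than Hox genes were also followed. Of 34 listed 33 were measured, 4 fell and none rose, with a median difference of 0.15, against 16.8% lower and 2.46% higher over all genes. Without the fold limit, 6 were lower and 9 higher at an adjusted p under 0.05, against 30.6% and 23.7% over all genes. Meox2, a homeobox gene of limb muscle, was 9.52, 7.53 and 7.91 at P 6-8w, against 11.26, 11.39 and 10.51 at P 1d (−2.73 ± 0.58, adjusted p = 0.0119). Tbx15 was 9.49, 7.76 and 9.65 at P 6-8w, against 11.35, 11.67 and 11.78 at P 1d (−2.63 ± 0.53, adjusted p = 0.0105). Gli3, the transcription factor that opposes Sonic hedgehog in the limb bud, was 5.68, 5.24 and 5.34 at P 6-8w, against 7.59, 7.49 and 7.51 at P 1d (−2.11 ± 0.13, adjusted p = 0.000302). The ages did not overlap in these 3 genes. Gli3 and Tbx15 have 2 array rows each, and with the mean of both rows their differences were −1.23 and −1.53. Meox1, a gene of the somites, differed by −1.37 ± 0.37 (adjusted p = 0.0253) and turned sign after centring on the bright genes. The Meox1 call was lost without P 6-8w replicate 1 or 3 and without any 1 of the P 1d replicates (adjusted p = 0.0529 to 0.0756), with the methods' t-test after adjustment (0.0639), after centring on the reference genes (0.286) and after quantile normalization (0.66). With P 1d replicate 2 as the only neonatal array, 1 of these factors was still called lower, and 2 chromatin regulators and 1 cofactor.

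Among 13 measured limb signals 1 fell (16.8% over all genes). This was Epha4, a receptor that in the mouse limb is controlled by Hox genes, at 5.14, 5.02 and 5.19 at P 6-8w, against 6.40, 6.34 and 6.54 at P 1d (−1.31 ± 0.08, adjusted p = 0.000334). It turned sign after centring on the bright genes, and the list had a median of −0.35. Retinoic acid switches on Hox genes in sequence in the embryo. Of 14 measured genes of its pathway 1 fell (16.8% over all genes), the receptor Rara, at 6.67, 6.54 and 6.54 at P 6-8w, against 8.57, 8.61 and 8.76 at P 1d (−2.06 ± 0.08, adjusted p = 0.000124), and the median was 0.08. None of the 7 measured caudal, ParaHox and Evx genes, the closest relatives of the Hox genes, was called, and their median was 0.33. Their means lay at 3.15 to 3.97. Of all 6292 genes with a mean of 3 to 4, 0 were called lower and 47 higher, and the median was also 0.33. The 4 limb type genes had a median of 0.15. Of the 12 called genes named from these lists, from Pknox2 to Rara, 3 were still called after quantile normalization (Gli3, Pknox2 and Rnf2), 5 after centring on the reference genes (Gli3, Meox2, Rara, Rnf2 and Tbx15) and 0 after centring on the bright genes.

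Summed marker signals of other cell types are given beside these values, and whether cell content or RNA per cell differed cannot be told apart. The summed signal of 10 proliferation genes, 9 of them called lower, was 8.99 to 9.17 (log2) at P 6-8w and 12.83 to 12.89 at P 1d. That of 18 skeletal muscle genes, 11 called lower and 4 higher, was 18.19 to 20.32 at P 6-8w and 22.09 to 22.25 at P 1d. For 12 measured epidermal genes, none called, it was 8.13 to 8.41 at P 6-8w and 7.82 to 19.35 at P 1d. Of 7 adipocyte genes 3 rose, with sums of 11.34 to 13.37 at P 6-8w and 10.20 to 11.29 at P 1d. Among the other marker lists, 2 of 7 endothelial genes fell and 1 rose, 1 of 8 blood and macrophage genes and 1 of 10 tendon genes fell, and none of 9 cartilage, 13 hair follicle or 6 nerve genes was called. Over all genes 16.8% were called lower and 2.46% higher. Of genes with a mean of 5 or above, which all the proliferation and muscle genes had, 38% were called lower. The part of these cell types in the Hox values was not tested.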

How the data were processed

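Total RNA of 3 P 6-8w and 3 P 1d tendons was turned into biotinylated cDNA and read on 6 Affymetrix Rat Transcriptome Arrays. The authors normalized the arrays by RMA and deposited log2 signals with 2 decimals. A further table repeats them (413052 of 413052 values equal). The genome build of the annotation and detection calls are not given in the sources used here, and arrays have no read depth.

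Of 68842 rows, 23446 had 1 gene symbol in the platform annotation, 505 had several, among them a row shared by Hoxd4 and Mir10b, and 44891 had none. Symbols were updated by Entrez ID (20907 of 21031 found, 1 changed). Where several rows named a gene (1182 genes), the brightest on average was kept.

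The ages were compared by limma's moderated test (limma 3.58.1, R 4.3.3) with no covariate and Benjamini-Hochberg adjustment over 22093 genes. The study's methods set the limit at a fold change over 2 and name a t-test. The fit was first checked on simulated data with known changes. The named genes were all Hox genes, Pitx1, Tbx4 and Tbx5, up to 4 called members of each other list with the largest differences, and up to 3 of the brightest members of marker lists. Isl1, Scx, Mkx, Tnc, Tnmd, the microRNAs and Hoxa11-as were named after their values were seen. The members, lists and rules were chosen with earlier results of these data known.

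Alternatives were the methods' t-test (unadjusted and adjusted), limma-trend, a rule without fold limit, a replicate block, each array left out, P 1d replicate 2 alone, 4 ways of centring the arrays, quantile normalization, dim genes left out, the mean of a gene's rows and a fit over all rows. Leaving out rows with no Entrez ID was added after seeing the data. With P 1d replicate 2 alone, that lone array is assumed to vary like the P 6-8w arrays.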

Additional observations from a re-analysis of the deposited data

How the results depend on the processing

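Numbers are Hox genes called lower and higher at P 6-8w, with those over all genes in brackets. As deposited they were 1 and 1 (3705 and 544). They became 5 and 8 (6759 and 5246) without the fold limit, 0 and 0 (1092 and 67) with P 1d replicate 2 alone, 5 and 0 (6192 and 140) after centring on the median of all rows, 1 and 0 (4264 and 342) on that of the named genes, 0 and 32 (591 and 17280) on that of named genes at 8 or above, 0 and 19 (1429 and 10780) on the mean of 10 reference genes, and 0 and 0 (990 and 894) after quantile normalization. Leaving out genes with a mean under 5 kept 10 Hox genes, with 1 and 0 called (3720 and 195), since Hoxd13 was not tested there.

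With 1 array left out, 0 to 1 Hox genes were called lower and 1 higher, against 3367 to 4000 and 373 to 677 over all genes. Hoxc10 was the gene lost, without P 6-8w replicate 2, P 6-8w replicate 3 or P 1d replicate 2. The methods' t-test (with or without adjustment), limma-trend, the mean of all rows of a gene, the fit over all rows and leaving out rows with no Entrez ID each called 1 and 1. Over all settings Hoxc10 ranged over −1.53 to 0.77 and Hoxd13 over 0.58 to 2.88.

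Centring on named genes at 8 or above turned 11 Hox genes from below to above 0, namely Hoxa3 (1.55), Hoxa7 (1.26), Hoxa9 (1.32), Hoxa11 (1.20), Hoxb2 (1.78), Hoxc4 (1.72), Hoxc6 (1.08), Hoxc9 (1.27), Hoxc10 (0.77), Hoxc11 (1.42) and Hoxd9 (1.76). It also turned Tbx4 (1.67), Pknox2 (0.37), Pbx3 (0.57), Meox1 (0.42), Epha4 (0.48), Bptf (0.10), Ezh2 (0.47), Ctcf (0.62), Mir196b (1.55), Mir615 (1.74) and Hoxa11-as (1.49). Quantile normalization turned Ctcf (0.45). The 1970 named genes at 8 or above had a median difference of −1.83, and centring on them raises every difference.

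Replicate numbers are shared between ages but do not pair the rats. Same-numbered arrays deviated from their group means with correlations of 0.01, −0.11 and 0.05. With the replicate number as a block, the same Hoxc10 and Hoxd13 were called, 1 and 1 (3635 and 501). Signals near 4 may be background, which limits what can be read from the 23 Hox genes with a mean under 5.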
